A study of Homo sapiens with 17 samples.

Results

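The genes described here encode surface proteins through which a B cell meets T and NK cells: FAS, CD80, CD86, CD274, PDCD1LG2, CD40, CD70, CD58, ICOSLG and TNFRSF14. They are 10 of the 63677 genes counted, each was found under a single Ensembl identifier, and they were taken from a written list that was drawn up because FAS, CD80 and CD274 were low in clones labelled as BCL11A knockouts. RNA came from Karpas-422 and from WSU-DLCL2, which are established human lines of B cell lymphoma. The 15 libraries formed 5 groups of 3. Karpas-422 was profiled untreated and after 48 h of A-485, an inhibitor of the acetyltransferases p300 and CBP. WSU-DLCL2 was profiled untreated, after 48 h of A-485, and as clones 1, 2 and 3 labelled BCL11AKO, in which the gene of the transcription factor BCL11A was meant to be disrupted. The groups called untreated are those whose sample titles name no treatment, and the rule behind the gene list calls these controls DMSO. Each knockout library was a different clone, and no unedited clone was among the samples. The labels do not say whether replicates were separate cultures, so p-values measure only the spread between these libraries.

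FAS is a death receptor: its ligand on T cells recruits the adaptor FADD and caspase 8 to it and so can start apoptosis. CD80 and CD86 bind CD28, which costimulates T cells, and CTLA4, which restrains them, while CD274 (PD-L1) and PDCD1LG2 (PD-L2) bind the inhibitory receptor PDCD1. CD40 receives help from T cells, CD70 binds CD27, CD58 binds CD2, ICOSLG binds ICOS, and TNFRSF14 (HVEM) binds BTLA and CD160. Germinal centre B cells use these contacts to be selected or removed, and CD58, TNFRSF14, FAS and CD274 are known sites of genetic change in B cell lymphoma.

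RefSeq promoter sequences (GRCh38.p14) were found for 7 of the 10 genes, in 10 windows. Shown here, on the gene's strand and without bases of annotated exons, are the stretches upstream of CD274, whose level was higher in every A-485 library of Karpas-422 than in any untreated one, and of CD80 and CD58, which moved together with FAS among the WSU-DLCL2 libraries. For FAS, 30 bases around its match to the NF-kB consensus are shown. Capitals mark matches, on either strand, to 4 motifs: an interferon response repeat (GAAA, 2 bases of any kind, GAAA), a gamma-activated site (TTCNNNGAA), a GC box (GGGCGG) and the NF-kB consensus.
CD274, chr9:5450292-5450502, plus strand: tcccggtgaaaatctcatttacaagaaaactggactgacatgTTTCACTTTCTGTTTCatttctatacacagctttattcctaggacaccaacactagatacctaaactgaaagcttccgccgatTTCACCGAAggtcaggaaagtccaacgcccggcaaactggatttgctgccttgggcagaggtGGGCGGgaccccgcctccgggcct
CD80, chr3:119559615-119559864, minus strand: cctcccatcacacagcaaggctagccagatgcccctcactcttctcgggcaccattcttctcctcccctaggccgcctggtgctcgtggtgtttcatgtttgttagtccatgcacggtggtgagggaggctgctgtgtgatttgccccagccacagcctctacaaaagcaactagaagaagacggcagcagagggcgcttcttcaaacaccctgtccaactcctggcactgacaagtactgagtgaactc
CD58, chr1:116571040-116571276, minus strand: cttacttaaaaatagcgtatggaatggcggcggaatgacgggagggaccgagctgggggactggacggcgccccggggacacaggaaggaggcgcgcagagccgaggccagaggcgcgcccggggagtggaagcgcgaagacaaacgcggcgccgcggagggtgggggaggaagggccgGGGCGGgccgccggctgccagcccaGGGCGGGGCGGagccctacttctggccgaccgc
FAS, chr10:88991264-88991293, plus strand: ggtcgctggaGGGGGACCCCggttggagag

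The CD274 stretch held 2 overlapping interferon response repeats on the opposite strand, 1 gamma-activated site and 1 GC box. In windows of 250 bases upstream of 35116 start sites, the interferon response repeat was found in 3.02%, the gamma-activated site in 6.57%, the GC box in 42.6% and the NF-kB consensus in 9.96%. None of the 4 motifs was found in the CD80 window, and CD58 had 3 GC boxes. The NF-kB consensus was matched upstream of 1 start site each of FAS, CD86 and TNFRSF14. The other windows of FAS and CD86 held no match to it. The FAS stretch shown lies downstream of the other FAS start sites. A match is a run of letters and not a measured site, and none of these libraries measured binding.

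The libraries were of 2 kinds. All 6 untreated and knockout WSU-DLCL2 libraries were deep, with 21233752 to 37286727 counts in genes. The 9 others, which are every Karpas-422 library and the A-485 libraries of WSU-DLCL2, were shallow, with 6689320 to 8897051 counts, and 43.0% to 55.5% of their reads had no unique alignment, against 7.73% to 9.24% in the deep ones. Genes that most cells express differed between the kinds: ACTB was at 3.20 to 31.9 CPM (a gene's counts scaled to the library's counts in genes) in the shallow and at 3432 to 9994 CPM in the deep libraries. WSU-DLCL2 with and without A-485 was therefore not compared, as the drug and the kind of library cannot be told apart. Each of 8 B cell markers was detected in every group, and erythroid markers were at 0. T and NK cell markers summed to 634 to 674 CPM in untreated Karpas-422, nearly all of it CD3G and CD3D with CD2, CD8A and GNLY at 0, and to at most 0.885 CPM in any WSU-DLCL2 library. BCL11A RNA was at 51.9 to 69.6 CPM in the clones and at 45.7 to 73.5 CPM in untreated WSU-DLCL2, so it was not lower in the clones. Counts over the whole gene do not show an edit that leaves its RNA in place. Untreated WSU-DLCL2 replicate 3 stood apart from replicates 1 and 2, and its labels disagree: its title gives no treatment and its treatment entry names A-485. It was grouped by title, and results that rest on it are given with and without it.

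**Figure D1:**
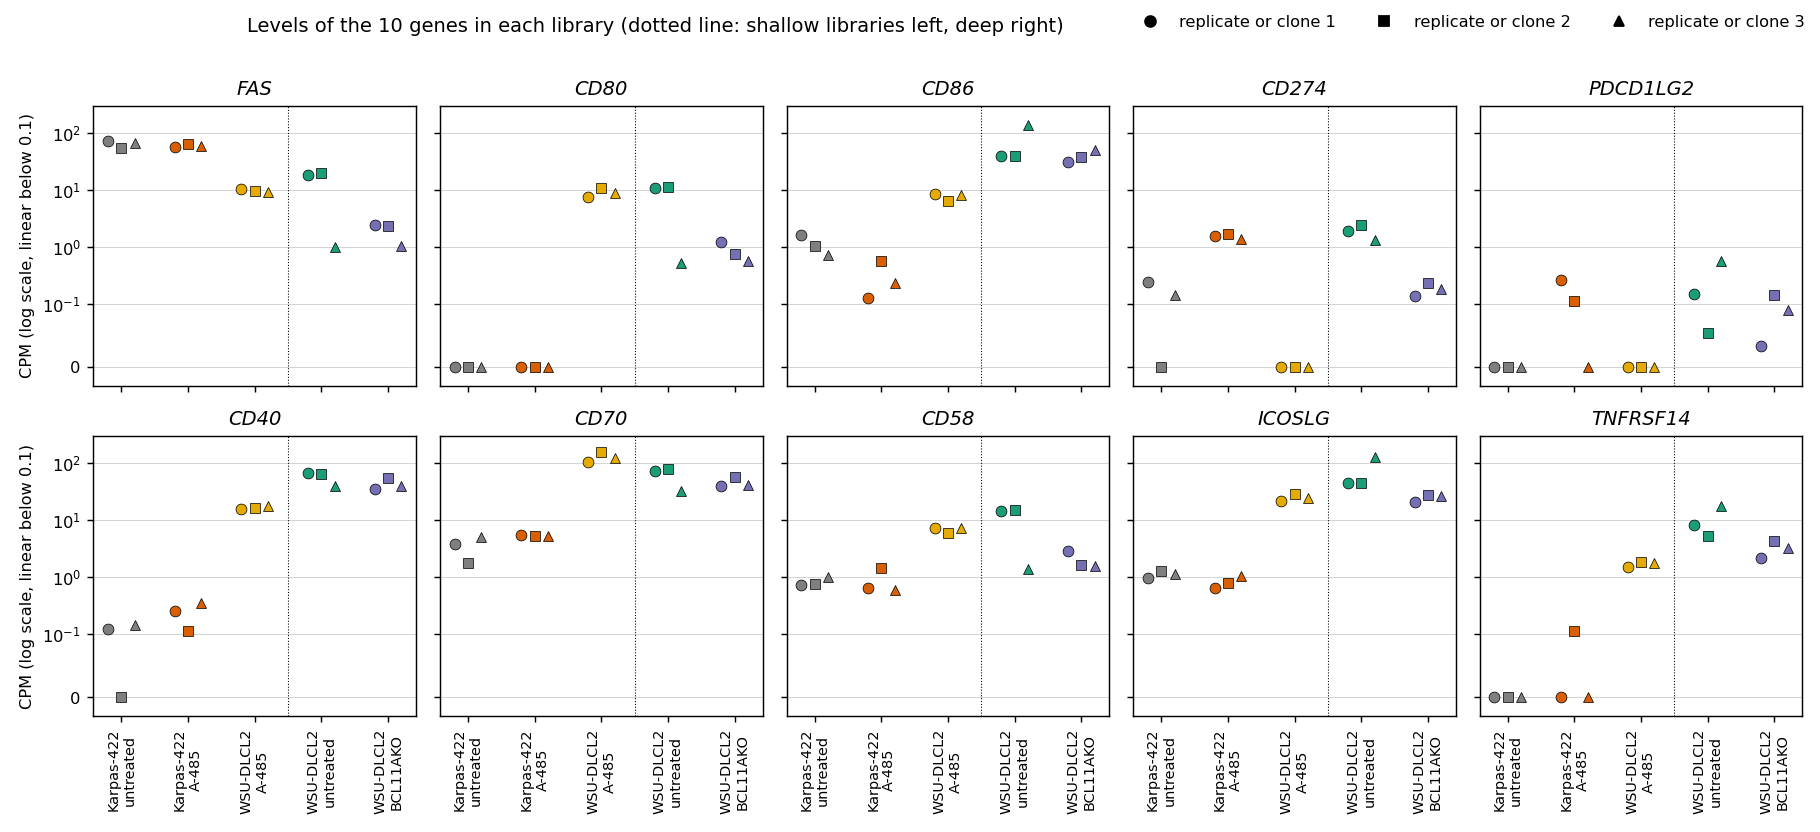
Level of each of the 10 genes in each of the 15 libraries, in CPM on a log axis that is linear below 0.1 CPM. Groups run along the horizontal axis, symbols give the replicate or clone, and the dotted line parts shallow from deep libraries. FAS is highest in Karpas-422, most other genes are highest in WSU-DLCL2, and untreated replicate 3 (triangle) lies away from replicates 1 and 2 for FAS, CD80, CD86, CD58, ICOSLG and TNFRSF14.

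The death receptor FAS was, per length, the most abundant of the 10 genes in Karpas-422. Its level was 71.7, 55.6 and 65.8 CPM in the untreated libraries and 58.0, 64.7 and 59.3 CPM with A-485. In WSU-DLCL2 it was 10.5, 9.60 and 9.38 CPM with A-485, 18.4, 19.8 and 0.989 CPM untreated, and 2.43, 2.29 and 1.04 CPM in the clones. Untreated replicate 3 was thus the lowest of all 15 libraries for FAS, with 21 counts where replicates 1 and 2 had 628 and 739.

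The ligands of CD28 and CTLA4 were mostly WSU-DLCL2 transcripts. CD80 had no count in any Karpas-422 library, where 3 counts over a group would be 0.131 CPM untreated and 0.119 CPM with A-485. It was at 7.47, 11.01 and 8.78 CPM in WSU-DLCL2 with A-485, at 10.7, 11.5 and 0.518 CPM untreated, and at 1.21, 0.745 and 0.567 CPM in the clones. Within WSU-DLCL2 the low libraries for CD80 were the same as for FAS: the 3 clones and untreated replicate 3. CD86 went another way, at 39.3, 39.6 and 136.7 CPM untreated and 31.2, 37.9 and 49.7 CPM in the clones, so that replicate 3 was its highest library. With A-485, CD86 was at 8.67, 6.49 and 8.04 CPM in WSU-DLCL2, and in Karpas-422 it was at 0.719 to 1.59 CPM untreated and at 0.128 to 0.562 CPM treated.

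The ligands of PDCD1 were rare throughout. CD274 had 66, 89 and 28 counts in untreated WSU-DLCL2 (1.94, 2.39 and 1.32 CPM) and 4, 8 and 6 counts in the clones (0.135, 0.229 and 0.179 CPM), which did not overlap. WSU-DLCL2 with A-485 had no CD274 count, and 3 counts over that group would be 0.146 CPM. Karpas-422 had 2, 0 and 1 counts untreated and 12, 15 and 12 with A-485, where every treated library was above every untreated library. PDCD1LG2 had at most 2 counts in any shallow library and at most 12 in a deep one, that of untreated replicate 3, so differences between groups were not detectable at this depth.

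The TNF receptor and ligand genes CD40 and CD70 had, per length, the highest mean levels of the set in each WSU-DLCL2 group. The ranges of CD40 and CD86 overlapped untreated and in the clones, and in untreated replicate 3 CD86, at 39.8 CPM per kilobase of exon, was above both CD70 (21.0) and CD40 (16.1). CD40 was at 15.8, 16.5 and 17.6 CPM with A-485, 68.0, 66.0 and 40.7 CPM untreated, and 35.2, 54.5 and 40.4 CPM in the clones, and it had at most 3 counts in any Karpas-422 library. CD70 was at 107.6, 157.8 and 125.8 CPM with A-485, 74.4, 78.9 and 32.2 CPM untreated, and 39.7, 57.1 and 41.7 CPM in the clones. In Karpas-422, CD70 was at 3.79, 1.79 and 5.04 CPM untreated and at 5.52, 5.28 and 5.24 CPM with A-485. Both genes had their lowest untreated WSU-DLCL2 value in replicate 3, within the clones' range for CD40 and below it for CD70. TNFRSF14, the receptor also known as HVEM, was at 8.25, 5.28 and 18.1 CPM untreated, 2.19, 4.35 and 3.25 CPM in the clones and 1.49 to 1.83 CPM with A-485, and it had 1 count in all of Karpas-422.

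CD58, the ligand of the adhesion receptor CD2, followed FAS and CD80 among the deep libraries. It was at 14.6, 15.2 and 1.37 CPM untreated and at 2.93, 1.63 and 1.55 CPM in the clones. With A-485 it was at 6.07 to 7.44 CPM in WSU-DLCL2, and it stayed between 0.582 and 1.46 CPM in the 6 Karpas-422 libraries. ICOSLG was, like CD86, highest in replicate 3, at 45.9, 44.9 and 131.1 CPM untreated and 20.9, 27.4 and 26.8 CPM in the clones. It was at 21.5 to 28.9 CPM in WSU-DLCL2 with A-485 and at 0.642 to 1.28 CPM in Karpas-422.

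Per kilobase of annotated exon, the order of levels differed by line. In Karpas-422 FAS came first, at 15.1 ± 1.92 CPM per kilobase untreated and 14.3 ± 0.842 with A-485 (SD, n = 3), followed by CD70 at 2.31 ± 1.07 and 3.49 ± 0.0980, and the ranges of these genes did not overlap. In the clones CD70 came first at 30.1 ± 6.21 CPM per kilobase, then CD40 at 17.2 ± 3.97 and CD86 at 11.5 ± 2.73, whose ranges overlapped, then ICOSLG at 2.68 ± 0.382 and CD58 at 1.14 ± 0.435. TNFRSF14 at 0.525 ± 0.174, FAS at 0.452 ± 0.179 and CD80 at 0.263 ± 0.104 each overlapped the next in that order, and CD274 at 0.0441 ± 0.0115 overlapped PDCD1LG2 at 0.0376 ± 0.0232. With A-485, WSU-DLCL2 also had CD70 first, at 85.1 ± 16.6 CPM per kilobase, and CD40 second, at 6.59 ± 0.344. CD58, CD80, ICOSLG, FAS and CD86 followed between 3.90 and 2.25 CPM per kilobase, each overlapping its neighbour. In untreated WSU-DLCL2 every neighbour from CD70 down to TNFRSF14 overlapped, since replicate 3 widened the ranges.

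In Karpas-422, A-485 was set against the group called untreated to ask how the drug changed these genes. This contrast had no part in choosing them. FAS fell, CD70 did not pass the test, and CD274 was higher in all treated libraries. These were the 3 of the 10 genes with enough counts to be tested by edgeR's quasi-likelihood test, CD274 through its treated libraries alone, so that it had to differ once it was tested. The background was high: 71.4% of the 11846 genes tested were called at an adjusted p under 0.05 (37.6% higher and 33.7% lower), so 2 of 3 is near it. Per library sizes alone, in place of TMM scaling, the split turned from 4459 higher and 3998 lower to 6465 higher and 2290 lower, and the median log2 fold change of all genes moved from 0.08 to 0.49.

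FAS, after TMM scaling, was at 79.1, 65.9 and 77.3 CPM untreated and at 50.3, 56.6 and 51.6 CPM with A-485. The groups did not overlap, as they did not for 74.7% of all genes, and the means were 74.1 ± 7.18 and 52.8 ± 3.33 CPM (SD, n = 3). The log2 fold change was -0.49 ± 0.09 (SE), with an adjusted p of 0.000162 by edgeR. With library sizes alone it was -0.08, the call was lost (adjusted p = 0.452, in a range of 2.40e-08 to 0.452 over the alternatives), and the unscaled CPM values overlapped. Relative to the median of all genes, the change was -0.57 under TMM and -0.57 under library sizes alone. A scaling shifts all genes by about the same amount, so these values could hardly differ and do not support the call.

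CD274 had 3 counts in the untreated and 39 in the treated libraries. From these sums and the TMM-scaled library sizes, the level was 8.91-fold higher with A-485, with a counting interval of 2.83 to 45.1 (95%, exact Clopper-Pearson), and this interval covers counting error only. Its fitted log2 fold change was 3.03 ± 0.58, and as it entered the fit only through the group where it was high, that call supports nothing. With no low-count filter, where it was tested whatever its level, the log2 fold change was 3.02 ± 0.68 (adjusted p = 4.01e-05 by edgeR). The other alternatives kept the filter, so their adjusted p-values, the highest 0.00705 by DESeq2, are no sign of stability. The level stayed low: 1.34 ± 0.129 CPM after TMM scaling with A-485. CD70 had a log2 fold change of 0.21 ± 0.27 (adjusted p = 0.507 by edgeR), and the change was -0.10 without untreated replicate 2, which had 14 counts.

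The other 7 genes were too rare in Karpas-422 to be tested. CD86 had 26 counts untreated and 8 with A-485, 4.74-fold lower with A-485 by the TMM-scaled library sizes (counting interval 2.09 to 12.1), and the treated libraries were all below the untreated ones. With no low-count filter, where 9506 of 24067 genes were called, CD86 was called lower by edgeR (log2 fold change -2.19 ± 0.58, adjusted p = 0.000528), and no other of these 7 genes was called. CD58 had 19 and 23 counts, ICOSLG 26 and 21, and CD40 2 and 6 (ratio 2.06 on the same scale, interval 0.368 to 20.8). CD80 had none, and PDCD1LG2 and TNFRSF14 had at most 3 in a group. Among markers of other cells, the summed dendritic cell list (LAMP3 and CD1C, with CLEC9A and FLT3 at 0) was at 420 to 447 CPM untreated and 29.5 to 31.2 CPM with A-485. The epithelial and fibroblast list, of which 5 of 6 genes including EPCAM and COL1A1 were at 0 and DCN alone was detected, was at 381 to 428 and 177 to 193 CPM, and the T and NK cell list at 634 to 674 and 528 to 563 CPM. The part of these markers in the results was not tested. In bulk RNA, fewer cells of a type and less RNA per cell cannot be told apart.

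**Figure D2:**
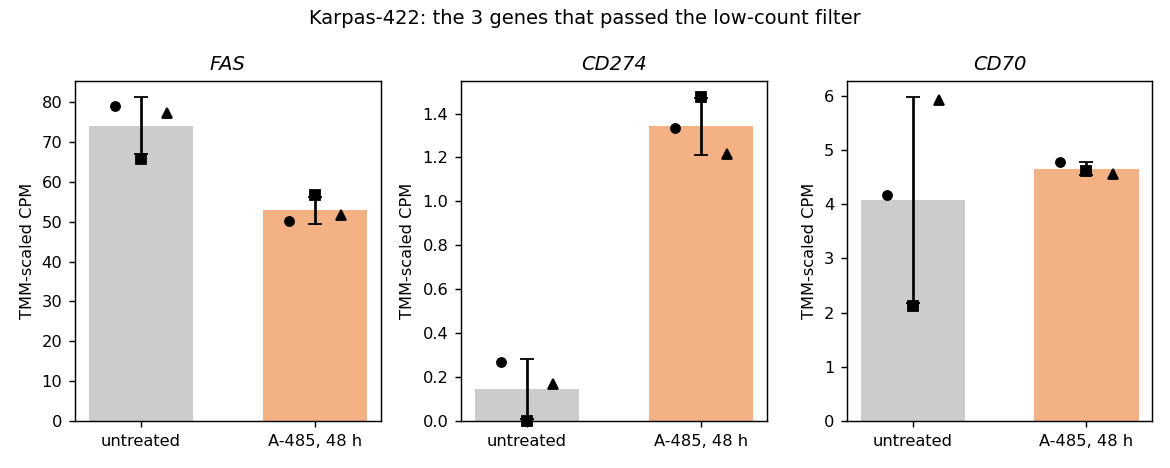
TMM-scaled CPM of FAS, CD274 and CD70 in Karpas-422, untreated and after 48 h of A-485. Bars are means of 3 libraries, error bars are SD and points are libraries, with a scale for each gene. FAS is lower in all treated libraries (52.8 against 74.1 CPM on average), CD274 is higher in all of them, and CD70 overlaps.

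The clones labelled BCL11AKO were set against untreated WSU-DLCL2 to ask what differed in the knockouts. This contrast chose the set, so its values are given as a description with no test. All 9 genes with enough counts had lower mean levels in the clones, by log2 fold changes of -3.35 ± 0.39 (SE) for CD274, -3.18 ± 1.02 for CD80, -2.78 ± 0.99 for FAS, -2.36 ± 0.84 for CD58, -1.67 ± 0.50 for TNFRSF14 and -1.55 ± 0.44 for ICOSLG. CD86 was at -0.84 ± 0.52, CD40 at -0.43 ± 0.26 and CD70 at -0.43 ± 0.35. The groups did not overlap for CD274, ICOSLG and TNFRSF14, as they did not for 16.5% of all genes tested. No gene of the 16152 tested was called by edgeR (0%), while 1117 genes had a p under 0.05 before adjustment. The number of calls was 315 with DESeq2 and 2 with limma-voom.

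Without untreated replicate 3, the same clones gave log2 fold changes of -3.73 ± 0.31 for CD80, -3.55 ± 0.29 for CD274, -3.33 ± 0.33 for FAS and -2.88 ± 0.29 for CD58. ICOSLG was at -0.86 ± 0.13, TNFRSF14 at -1.05 ± 0.32, CD70 at -0.74 ± 0.15 and CD40 at -0.64 ± 0.17. CD86 was at 0.00 ± 0.20, so its lower mean level rested on replicate 3. The groups then did not overlap for 8 of the 9 genes, as they did not for 40.3% of the 16607 genes in that fit, and as the contrast chose the set nothing is read from this count. PDCD1LG2 had too few counts in either fit (19 untreated and 9 in the clones, a ratio of 2.24 by the TMM-scaled library sizes, with a counting interval of 0.965 to 5.62).

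**Figure D3:**
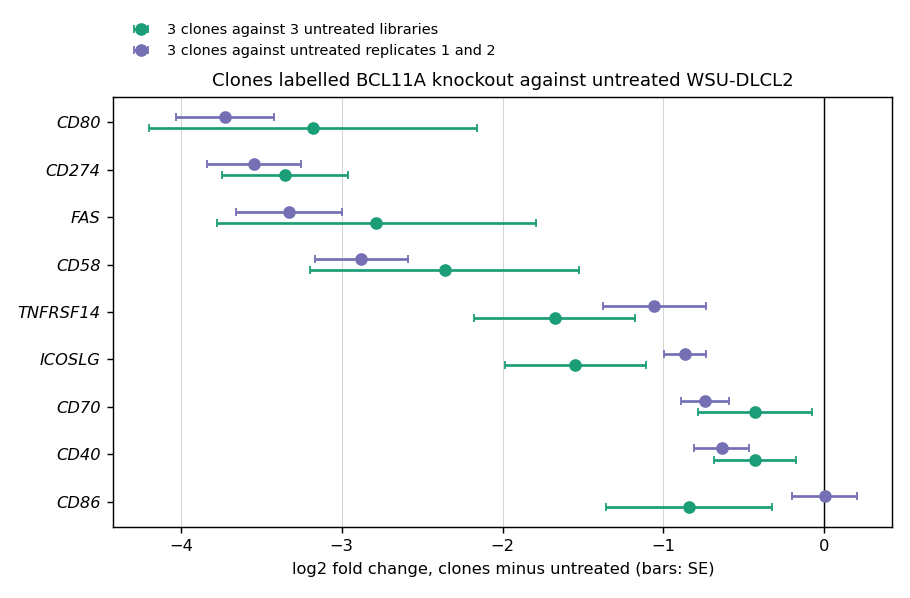
Log2 fold change of 9 genes, clones minus untreated WSU-DLCL2, against all 3 untreated libraries and against replicates 1 and 2 alone. Points are fitted values and bars are SE. CD80, CD274, FAS and CD58 lie lowest in both fits, the bars of CD80, FAS and CD58 shorten without replicate 3, and CD86 moves from -0.84 to 0.00.

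Untreated replicate 3 split the set. Against the mean of replicates 1 and 2, after TMM scaling, CD80 was 21.9-fold lower in it, FAS 19.8-fold, CD58 11.2-fold and CD70 2.44-fold. CD86 was 3.38-fold higher, ICOSLG 2.82-fold and TNFRSF14 2.61-fold, while CD40 and CD274 were lower by 1.69-fold and 1.68-fold. Thus 4 of 9 genes were at least 2-fold lower, 3 at least 2-fold higher and 2 within 2-fold, where 14.3% of all genes were at least 2-fold lower and 11.2% higher. The untreated libraries were part of the contrast that chose the set, so nothing is read from these counts. FAS, CD80 and CD58 were lower in replicate 3 than in any clone, CD40 lay within the clones' range, and CD274 lay between the clones and replicates 1 and 2. With 1 library there is no replicate of this pattern. Replicate 3 was also the shallowest deep library, and it differed from replicates 1 and 2 by a chi-square per gene of 201 and 212, where those differed from each other by 2.66 and the clones among themselves by 20.3 to 40.9.

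Genes of the NF-kB pathway, which CD40 signalling activates in B cells, did not all have the same order among these 6 libraries. They were chosen after their values were seen, so they support no statement about the pathway. NFKB2, which encodes the p100 precursor of the alternative pathway, was at 112, 110 and 32.4 TMM-scaled CPM untreated and at 36.3, 50.3 and 33.8 CPM in the clones. Its partner RELB was at 45.8, 51.0 and 13.5 CPM untreated and at 15.5, 28.8 and 14.9 CPM in the clones. BIRC3, an inhibitor of apoptosis, was at 295, 308 and 103 CPM and at 108, 110 and 88.4 CPM, and NFKBIA, the inhibitor IkBα, at 64.0, 62.5 and 27.7 CPM and at 25.4, 28.8 and 27.9 CPM. In all 4 genes replicate 3 was below replicates 1 and 2 and within or below the clones' range. NFKB1 was at 211, 207 and 92.3 CPM untreated and at 146, 132 and 146 CPM in the clones, so that only replicate 3 was under 100. The subunits RELA and REL went the other way. RELA was at 62.5, 63.4 and 93.8 CPM untreated and at 63.3, 63.4 and 68.5 CPM in the clones, and REL was at 176, 170 and 222 CPM untreated and at 177, 182.8 and 151 CPM in the clones. Replicate 3 was thus the highest of the 6 libraries for both.

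**Figure D4:**
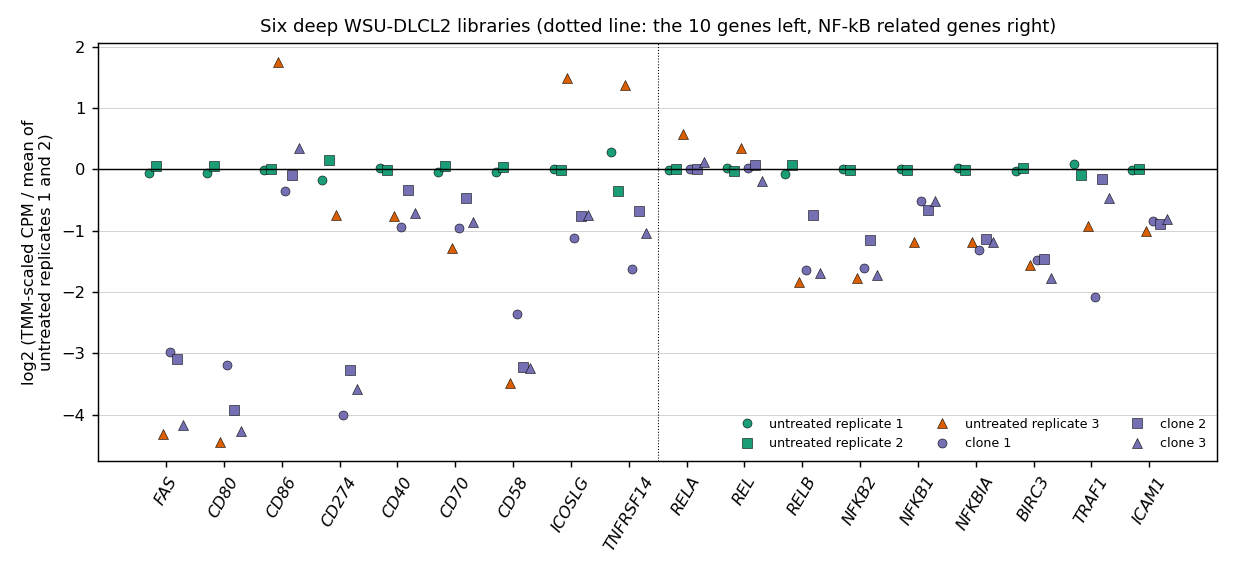
Log2 ratio of TMM-scaled CPM to the mean of untreated replicates 1 and 2, for the 3 untreated and 3 clone libraries of WSU-DLCL2. Left of the dotted line are 9 of the 10 genes, right of it 9 NF-kB related genes chosen after their values were seen. Replicate 3 (orange) lies within or below the clones' range for FAS, CD80, CD40, CD70, CD58 and 7 of the NF-kB related genes, above all other libraries for CD86, ICOSLG, TNFRSF14, RELA and REL, and in between for CD274.

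The lines were compared with both under A-485, where the libraries were all of the shallow kind, to ask how the set differs by line. The share of reads not aligned still differed, at 14.1% to 14.6% in WSU-DLCL2 and 2.51% to 2.86% in Karpas-422. Line and this share cannot be told apart. With A-485, WSU-DLCL2 had more of the costimulatory genes and Karpas-422 more FAS and CD274. All 9 genes tested were called by edgeR's quasi-likelihood test, 7 higher in WSU-DLCL2 and 2 lower, where 72.4% of the 12472 genes tested were called (34.3% higher and 38.1% lower). Of these 9, FAS and CD70 had enough counts in both lines, and the others were tested through the line where they were high and so had to differ. For CD274 the order was the reverse in the untreated libraries. It was at 0 to 0.244 CPM in untreated Karpas-422 and at 1.32 to 2.39 CPM in untreated WSU-DLCL2. Those groups were of different kinds, shallow and deep, so whether CD274 differs by line without A-485 was not tested.

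FAS was at 56.2, 63.7 and 58.1 TMM-scaled CPM in Karpas-422 and at 10.9, 9.76 and 9.69 CPM in WSU-DLCL2, a log2 difference of -2.55 ± 0.10 (adjusted p = 1.98e-13 by edgeR). CD70 was at 5.35, 5.20 and 5.13 CPM in Karpas-422 and at 112, 160 and 130 CPM in WSU-DLCL2, a log2 difference of 4.68 ± 0.15 (adjusted p = 1.73e-11 by edgeR). CD70 and FAS thus lay on opposite sides, with no overlap between lines for either, as there was none for 74.9% of the 12472 genes tested. ICOSLG differed by 4.97 ± 0.21 and CD58 by 2.98 ± 0.29 on the log2 scale. From summed counts and TMM-scaled library sizes, CD40 was 73.8-fold higher in WSU-DLCL2 (counting interval 33.6 to 203), CD86 25.7-fold (12.7 to 60.5) and TNFRSF14 45.5-fold (7.64 to 1847, from 1 against 35 counts). On the same scale, CD80 was at least 81.0-fold higher in WSU-DLCL2 and CD274 at least 10.01-fold lower, each a bound set by 3 counts in the group that had none. PDCD1LG2 was at or under that floor in both lines.

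The partners on T and NK cells were mostly absent from these cells. Of 11 such genes, which are FASLG and a list of 10 partners of the other members, FASLG, CTLA4, ICOS and CD2 had no count in any of the 15 libraries, CD40LG had 1 count in all and PDCD1 had 2. CD27, the receptor of CD70 that B cells also carry, was at 34.2 to 78.9 CPM in all libraries. In Karpas-422 CD27 fell with A-485 by 0.78 ± 0.10 on the log2 scale, and RGMB, a partner of PDCD1LG2, fell by 0.82 ± 0.12 (adjusted p 1.43e-05 and 3.29e-05 by edgeR). CD160, a partner of TNFRSF14, rose by 1.84 ± 0.33. It was at 0.432 to 0.977 CPM untreated and at 3.34 to 4.50 CPM with A-485. CD160 entered the fit only through its treated libraries, so its call supports nothing. CD27, RGMB and CD160 were the 3 of the 10 listed partners with enough counts there, where 71.4% of all genes were called. Their median was -0.78 beside 0.08 for all genes.

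Around the members in Karpas-422, the death receptor list had 10 of 24 genes tested, with 3 higher and 2 lower (median log2 fold change 0.24). This count and those of the lists that follow stand beside 71.4% of all genes called, 37.6% higher and 33.7% lower, and a median of 0.08, and call nothing particular to a list. TNFRSF10A, a receptor for the death ligand TRAIL, fell from 247 ± 14.6 to 114 ± 3.88 TMM-scaled CPM (log2 -1.11 ± 0.06). CFLAR, which blocks caspase 8 at death receptors, rose from 94.0 ± 3.84 to 154 ± 2.93 CPM (0.72 ± 0.06), and CASP8 itself rose from 29.9 ± 2.03 to 48.7 ± 1.71 CPM (0.71 ± 0.09). TNFRSF10A and CFLAR thus moved in opposite directions, while CASP8 rose with its inhibitor CFLAR. With 37.6% of all genes higher and 33.7% lower, no pattern is read from these moves.

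Of the B7, butyrophilin and other checkpoint ligands, 9 of 20 were tested, with 5 higher and 3 lower (median 0.80). CD47, which signals to phagocytes not to engulf a cell, rose from 27.8 ± 3.83 to 111 ± 4.79 CPM (1.98 ± 0.09). The butyrophilin BTN2A2 rose by 1.76 ± 0.14 and BTN3A2 fell by 0.67 ± 0.06 on the log2 scale. In the TNF superfamily list, 7 of 19 were tested, with 2 higher and 3 lower (median -0.20). TNFSF15, a TNF family ligand, fell from 22.97 ± 2.45 to 1.55 ± 0.174 CPM (-3.88 ± 0.18), and the adaptors TRAF5 and TRAF3 rose by 2.54 ± 0.27 and fell by 0.67 ± 0.07. In the adhesion and SLAM list, 8 of 17 were tested, with 2 higher and 4 lower (median -0.18). There CD84 rose 4.01-fold, from 3.08 ± 0.651 to 12.5 ± 0.308 CPM, SH2D1A fell by 1.13 ± 0.31 and ICAM3 fell by 0.55 ± 0.19, and the calls of SH2D1A and ICAM3 were lost with library sizes alone (adjusted p = 0.0550 and 0.532).

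Of 22 genes known to regulate CD274 or CD80, 14 were tested in Karpas-422, with 8 higher and 4 lower (median 0.43). CMTM6, which keeps the CD274 protein at the surface, rose by 0.49 ± 0.05, and STAT3 fell by 0.63 ± 0.07. Among neighbours of CD274 on 9p24, 8 of 16 genes tested were higher and 4 lower (median 0.45), with UHRF2 up by 3.17 ± 0.15, RCL1 down by 1.41 ± 0.10 and PLGRKT down by 0.67 ± 0.05. Among neighbours of FAS on 10q23, 6 of 9 tested were higher and 2 lower (median 1.54). The interferon-induced genes IFIT2, IFIT1 and IFIT5 had the smallest p among them, with rises of 2.64 ± 0.08, 2.47 ± 0.15 and 1.54 ± 0.14. KIF20B rose by more, 3.09 ± 0.41, from 0.382 ± 0.261 to 3.52 ± 0.663 CPM, and STAMBPL1 rose by 2.24 ± 0.28. Both were named after their values were seen. KIF20B was tested through its treated libraries alone, so its call supports nothing. With library sizes alone, the counts were 6 higher and 2 lower for the death receptor list, 6 and 2 for the checkpoint ligands, 3 and 3 for the TNF superfamily, 4 and 0 for the adhesion list, 8 and 1 for the regulators, 13 and 2 for 9p24 and 8 and 0 for 10q23, and the medians of the TNF superfamily and adhesion lists turned to 0.21 and 0.23, both below the 0.49 of all genes.

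In the clones, again as a description, none of the genes tested in these 8 lists was called against all 3 untreated libraries. Without replicate 3, where 2.11% of all genes were called and 1.69% called lower, BIRC3 of 16 death receptor genes, SLAMF7 and ICAM1 of 15 adhesion genes, NFKB1, NFKB2 and NFKBIA of 22 regulators, and BTN2A2 of 10 checkpoint ligands were called lower. LGALS9, the galectin-9 gene, was the only list gene called higher, at 1.93 ± 0.708 CPM in untreated replicates 1 and 2 and 10.4 ± 1.39 CPM in the clones. Over all 3 untreated libraries LGALS9 was at 4.71 ± 4.81 CPM, and the groups overlapped. Of 21 neighbours of CD274 on 9p24, the relaxin genes RLN1 and RLN2 and PLGRKT were called lower. Both relaxin genes were rare: RLN2 was at 0.867 ± 0.189 CPM in replicates 1 and 2 and at 0.0951 ± 0.0636 CPM in the clones, and as near-identical copies they may share reads. Of 9 neighbours of FAS, ACTA2, which overlaps FAS on the other strand, was called lower (0.562 ± 0.00736 and 0.0790 ± 0.0406 CPM). RLN1, RLN2 and ACTA2 entered this fit only through untreated replicates 1 and 2, where they were high, so their calls support nothing. They had too few counts to be tested against all 3 untreated libraries. None of 11 TNF superfamily genes and none of 3 partner genes was called. These genes were named for these calls, after their values were seen.

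Some members share their locus with other genes, and the sources used here give no strand for the libraries, so reads of overlapping genes cannot be told apart. ACTA2 was at no more than 0.899 CPM in any library. TIMMDC1, opposite to CD80, was at 33.9 to 45.8 CPM in untreated WSU-DLCL2 and at 44.6 to 48.7 CPM in the clones, so it did not share the low level of CD80. TNFRSF14-AS1, opposite to TNFRSF14, was at no more than 1.69 CPM. In the clones it was at 0.742 to 1.69 CPM and TNFRSF14 at 2.19 to 4.35 CPM. In WSU-DLCL2 with A-485 it was at 0.299 to 1.13 CPM and TNFRSF14 at 1.49 to 1.83 CPM. NAP1L4P1 is a pseudogene on the same strand as CD58. It was at 1.98 to 2.70 CPM in untreated WSU-DLCL2. In the clones it was at 1.22 to 1.58 CPM and CD58 at 1.55 to 2.93 CPM. RPL7P50, a pseudogene opposite to CD70, was at 1.01 to 2.81 CPM in untreated Karpas-422 and 8.32 to 9.66 CPM with A-485. CD70 was at 1.79 to 5.52 CPM in Karpas-422. Whether reads of these pseudogenes entered the counts of CD58 and CD70, or reads of TNFRSF14-AS1 those of TNFRSF14, was not tested.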

How the data were processed

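Read counts per gene, 1 file per library, were deposited by the authors and used as raw counts; each file ends in 5 summary lines, which were left out of library sizes and tests and held 27.3% to 70.2% of all lines' reads. The tools named by the submitters' processing notes are STAR 2.5.3a and RSEM, and the build is GRCh37 (hg19); the sources used here give no annotation, counter, kit or strand. The 17 sample records hold 3 runs of untreated WSU-DLCL2 replicate 3 that share 1 file, giving 15 libraries. Symbols came by identifier for 52526 of 63677 genes; exonic lengths came from GENCODE 29 and promoter windows from RefSeq (GRCh38.p14), and no other coordinates are given.

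Only the groups compared entered a fit: edgeR 4.0.16 in R 4.3.3, TMM, filterByExpr, robust quasi-likelihood, two-sided, Benjamini-Hochberg over all genes kept, threshold 0.05. SE is the log2 fold change over the square root of F. Levels are CPM by library total, or TMM-scaled CPM within a comparison where so named. Counting intervals and floors (3 counts over a group) cover counting error only, since reads carry no molecular identifiers. Alternatives were other scalings, no low-count filter, DESeq2 1.42.0, limma-voom (limma 3.58.1), a replicate block and each library left out. The fit was tested on simulated data of 11846 genes for Karpas-422, 16152 for the clones and 12472 for the lines. Of 100 genes changed by 2 on the log2 scale, 97, 96 and 97 were recovered in that order. Of 100 changed by 1, 90, 32 and 87 were, and 11, 2 and 10 unchanged genes were called. The simulation gave all genes of a comparison the same spread and held no library that stood apart, as untreated replicate 3 did. These rates therefore do not give the power in the real libraries. The named genes were the 10 members and, from each of 8 lists, up to 3 protein-coding genes with the smallest p in Karpas-422, of which 1 is not reported here; NF-kB related genes are named outside this rule. Members, lists and tests were chosen with earlier results of these data known. No pair of libraries was counted as 1 sample: the lowest chi-square per gene (20 counts or more in the pair) was 1.20.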

Additional observations from a re-analysis of the deposited data

How the results depend on the processing

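FAS in Karpas-422, and FAS and CD70 between the lines, kept their direction and their call under each alternative, except FAS in Karpas-422 with library sizes alone (log2 fold change -0.08), where 1 of the 10 genes was called in place of 2. CD274 in Karpas-422 and the other 7 genes called between the lines passed the low-count filter through 1 group, so their calls under alternatives that keep the filter are no sign of stability. With no low-count filter 3 were called in Karpas-422, which were FAS, CD274 and CD86, and 9 of 10 between the lines. Between the lines, CD274 had too few counts to be tested without A-485-treated Karpas-422 replicate 1 or 2, which left 8 called. CD70 in Karpas-422, called under none of them, was at -0.10 to 0.53 with 1 library left out, the lowest without untreated replicate 2. For the clones, where edgeR called 0 genes, the number called was 20 with no low-count filter, 315 with DESeq2, 2 with limma-voom and 0 to 351 with 1 library left out, the 351 without untreated replicate 3; of the 10 genes, 1 was called with no filter, 4 with DESeq2 and 0 to 5 with 1 library left out, from which nothing is read, as this contrast chose them. CD86 in the clones was at -1.12 to 0.0035 with 1 library left out, the highest without that replicate, in place of -0.84. The causes were not tested. Replicate numbers were shared between groups, but same-numbered libraries did not deviate together (correlations -0.05 to 0.08 in Karpas-422, 0.05 to 0.25 for the clones, -0.22 to 0.01 between the lines), so they were not used as pairs; with a replicate block, 8250 genes were called in Karpas-422, 0 for the clones and 8666 between the lines, and 2, 0 and 9 of the 10 genes. TMM over all 15 libraries gave factors of 0.782 to 1.18. Depth sets the level of 3 counts over a group, which was 0.119 to 0.146 CPM in the shallow and 0.0306 to 0.0324 CPM in the deep groups.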
